A study of Mus musculus with 24 samples.

Results

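The regions described here are stretches of open chromatin that hair follicle stem cells of unwounded mouse skin shared with healed epidermis 80 days after a partial-thickness wound, and that unwounded epidermis did not show. Peaks of 8 deposited lists were joined into 63188 regions, and a list held a region when 1 of its peaks overlapped it. Members were chosen by presence in the authors' peak lists: a region was kept when the day 0 hair follicle list (the follicle list below) and the day 80 partial-thickness list held it and neither list of unwounded epidermal stem cells (day 0 and day 80) did. This rule left 892 regions, 1.41% of all. They are called retained below, which says only that 2 lists hold them. The hair follicle list held 9060 regions that were in neither epidermal list (follicle-type regions), so the 892 were 9.85% of these and the other 8168 were not retained. Because these 4 lists chose the members, their presence or absence in those lists is no finding. Of all regions, the day 80 partial-thickness list held 51.9%, the day 0 and day 80 epidermal lists 47.8% and 49.8%, and the follicle list 45.9%.

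The study mapped accessible DNA in 24 samples by ATAC-seq, a method that lets a transposase cut and tag open chromatin, and gives 1 peak list per group. All mice were from a cross of CD1 and C57BL/6J, and the samples were basal cells of trypsin-treated skin, sorted by FACS. Cells labelled as wound-responsive progeny of hair follicle stem cells came from partial-thickness wounds of Krt19-CreER/R26-YFP mice, with 3 samples for day 3, 2 for day 7 and 3 for day 80. Cells labelled as wound-responsive progeny of epidermal stem cells came from full-thickness wounds of Sox9-CreER/R26-YFP mice, with 3 samples for day 7 and 2 for day 80. Unwounded skin of Krt19-CreER/R26-YFP mice gave 2 groups of epidermal stem cells, 4 samples from day 0 and 3 from day 80, and 1 group of hair follicle stem cells, 4 samples from day 0. The lineage tag in every mouse is a YFP reporter that a Cre driver switches on. Krt19 and Sox9 are both active in the hair follicle bulge, and the labels do not say how cells of the Sox9-CreER mice were assigned to the epidermis. The wound type therefore cannot be told apart from the Cre line. The sources used here do not give ages or sorting gates. The deposited name alone ties the day 0 epidermal list to its group, because the peaks in it are named after a day 7 control.

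Hair follicle stem cells rest in the bulge, a niche on the side of the follicle, and rebuild the follicle at each hair cycle under transcription factors such as SOX9, LHX2 and NFATC1. When the surface epidermis is lost, cells of the follicle migrate up to repair it and take on the program of basal epidermal keratinocytes, with its integrins, laminins and p63. Open chromatin at an enhancer or promoter marks a site where transcription factors can bind, and a site that is still open after the cells have settled in a new tissue is a candidate for a record of their origin. The comparison asks which regions of the follicle the healed epidermis still held.

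Sequences are shown for promoters, since the available sequence covers promoters and not other parts of the genome. The windows run from 250 bases before to 50 after a transcription start of a gene (RefSeq, GRCm38.p6), which need not be its first base. The first 5 belong to the strongest retained promoters, ordered by the lower of a region's percentile ranks in the hair follicle and day 80 partial-thickness lists, and each window lies wholly inside its region. One window is shown per region, and the Hspa1a region also held that of Hspa1l, on the plus strand. Hspa1a, the stress-inducible HSP70 chaperone, has chr17:34972107-34972406 on the minus strand. Spag5, a protein of the mitotic spindle, has chr11:78301341-78301640 on the plus strand, for a start at 78301591 in a gene that begins at 78301470. Anp32a, a nuclear phosphoprotein, has chr9:62341093-62341392, plus strand. Cdc6, which licenses origins of DNA replication, has chr11:98907901-98908200, plus strand. That window is set on a start at 98908151 and lies inside the gene, which begins at 98907709. Eif3l, a subunit of a translation initiation factor, has chr15:79074973-79075272, plus strand. The last 2 are set against them because they had the highest hair follicle ranks among promoters that were not retained though both early partial-thickness lists held them. They are Mill1, a relative of the MHC class I proteins, at chr7:18245097-18245396 (plus strand), and Sgcd, a sarcoglycan, at chr11:47379276-47379575 (minus strand). Each reads 5′ to 3′ along its gene. Capitals mark matches on either strand to the ETS core TTCCGG, the CCAAT box, the GC box with the letters GGGCGG and the heat shock element core GAANNTTC.
Hspa1a: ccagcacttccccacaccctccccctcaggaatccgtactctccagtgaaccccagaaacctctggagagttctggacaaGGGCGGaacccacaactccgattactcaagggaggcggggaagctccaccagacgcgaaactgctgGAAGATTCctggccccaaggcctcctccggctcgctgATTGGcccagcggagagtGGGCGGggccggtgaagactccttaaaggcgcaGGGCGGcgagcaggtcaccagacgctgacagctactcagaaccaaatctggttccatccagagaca
Spag5: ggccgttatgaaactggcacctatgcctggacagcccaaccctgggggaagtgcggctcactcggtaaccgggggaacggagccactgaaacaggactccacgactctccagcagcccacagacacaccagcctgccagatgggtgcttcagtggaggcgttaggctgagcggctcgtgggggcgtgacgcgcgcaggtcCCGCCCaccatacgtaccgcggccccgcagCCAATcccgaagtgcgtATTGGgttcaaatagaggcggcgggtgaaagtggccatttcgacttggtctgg
Anp32a: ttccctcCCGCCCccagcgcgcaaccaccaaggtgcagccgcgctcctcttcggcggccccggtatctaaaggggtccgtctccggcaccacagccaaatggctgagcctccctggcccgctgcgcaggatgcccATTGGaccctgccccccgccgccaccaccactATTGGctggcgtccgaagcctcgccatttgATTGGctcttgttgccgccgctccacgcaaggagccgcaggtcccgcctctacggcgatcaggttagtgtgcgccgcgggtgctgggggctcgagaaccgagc
Cdc6: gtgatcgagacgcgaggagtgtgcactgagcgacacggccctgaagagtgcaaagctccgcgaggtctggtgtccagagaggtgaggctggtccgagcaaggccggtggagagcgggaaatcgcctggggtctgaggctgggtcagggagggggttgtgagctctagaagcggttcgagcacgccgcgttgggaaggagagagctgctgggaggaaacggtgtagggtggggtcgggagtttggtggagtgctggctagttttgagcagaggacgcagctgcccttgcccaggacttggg
Eif3l: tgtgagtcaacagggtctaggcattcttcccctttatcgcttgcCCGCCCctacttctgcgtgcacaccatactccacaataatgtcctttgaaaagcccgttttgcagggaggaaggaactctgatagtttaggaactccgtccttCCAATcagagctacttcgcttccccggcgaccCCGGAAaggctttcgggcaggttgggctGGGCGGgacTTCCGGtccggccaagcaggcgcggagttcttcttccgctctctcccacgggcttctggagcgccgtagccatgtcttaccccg
Mill1: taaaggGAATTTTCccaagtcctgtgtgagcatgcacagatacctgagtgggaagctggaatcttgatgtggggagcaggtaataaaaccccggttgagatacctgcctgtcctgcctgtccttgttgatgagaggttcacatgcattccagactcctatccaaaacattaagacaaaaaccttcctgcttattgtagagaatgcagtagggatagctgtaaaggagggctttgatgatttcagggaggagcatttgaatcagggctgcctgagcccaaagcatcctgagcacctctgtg
Sgcd: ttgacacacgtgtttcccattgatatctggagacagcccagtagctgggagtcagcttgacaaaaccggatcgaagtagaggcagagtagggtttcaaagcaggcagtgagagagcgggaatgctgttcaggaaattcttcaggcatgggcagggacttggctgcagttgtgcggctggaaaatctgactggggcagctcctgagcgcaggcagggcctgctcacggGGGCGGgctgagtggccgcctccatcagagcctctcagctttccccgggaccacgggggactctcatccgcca

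The Hspa1a window holds 3 GC boxes, a CCAAT box and a heat shock element core, Spag5 holds a GC box and 2 CCAAT boxes, and Anp32a holds a GC box and 3 CCAAT boxes. Eif3l holds 2 ETS cores, 2 GC boxes and a CCAAT box. The Cdc6 window, which lies inside the gene, holds none of the 4. Of the promoters not retained, Mill1 holds a heat shock element core and Sgcd a GC box. A match describes letters and not a bound site.

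Most retained regions were also open in the wound lists that the rule left free. The day 3 partial-thickness list held 614 of the 892 (68.8%, exact Clopper-Pearson 95% interval 65.7 to 71.9), against 24.3% of the follicle-type regions that were not retained and 28.7% of follicle-type regions as a whole. At day 7 of the same wound the shares were 70.9% (67.7 to 73.8) and 21.8%, and 26.6% as a whole. These lists held 56.6% and 55% of all regions. With 1 list per group the intervals cover counting error only, and no test between groups can be made. A peak missing from a list can also be a weak one, and fewer open cells cannot be told apart from less signal per cell.

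In the full-thickness lists the retained share was above that of the other follicle-type regions, but near or below that of all regions. The day 7 list held 554 (62.1%, 58.8 to 65.3), against 11.2% of those not retained, 16.2% of follicle-type regions as a whole and 58% of all regions. The day 80 list held 365 (40.9%, 37.7 to 44.2), against 5.20% of those not retained and 51.1% of all regions. In total 637 retained regions were in at least 1 full-thickness list and 255 (28.6%) were in neither. For every one of these 4 lists the retained share was higher than the share among the other follicle-type regions, and the intervals did not overlap.

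**Figure D1:**
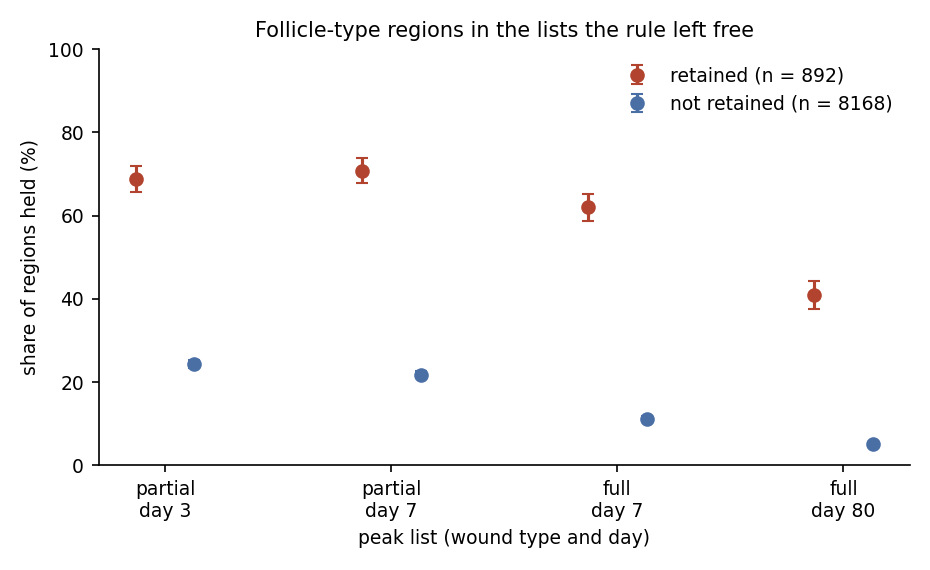
Share of follicle-type regions (%) held by each wound list that the rule left free, for the 892 retained regions and the 8168 not retained; points are shares and bars are exact 95% intervals. The retained regions lie between 40.9% and 70.9%, above the other regions in all 4 lists.

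The share retained at day 80 grew with the number of other wound lists that held a region. It was 143 of 5772 (2.48%) where no other wound list held it, 100 of 1028 (9.73%) with 1 list, 129 of 981 (13.1%) with 2, 273 of 832 (32.8%) with 3 and 247 of 447 (55.3%) with all 4. The same shares were not counted over all regions, so the growth is not known to be particular to follicle-type regions. The 247 regions open in all 5 wound lists made up 27.7% of the retained regions, against 200 regions (2.45%) in the other 4 wound lists among those not retained and 33.8% of all regions in these 4 lists. The 143 retained regions seen in no other wound list made up 16.0%, against 68.9% of those not retained and 19.1% of all regions. In neither early partial-thickness list, and so with no peak kept at day 3 or day 7 of that wound, were 199 retained regions (22.3%), against 71.0% of those not retained and 35.3% of all regions.

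**Figure D2:**
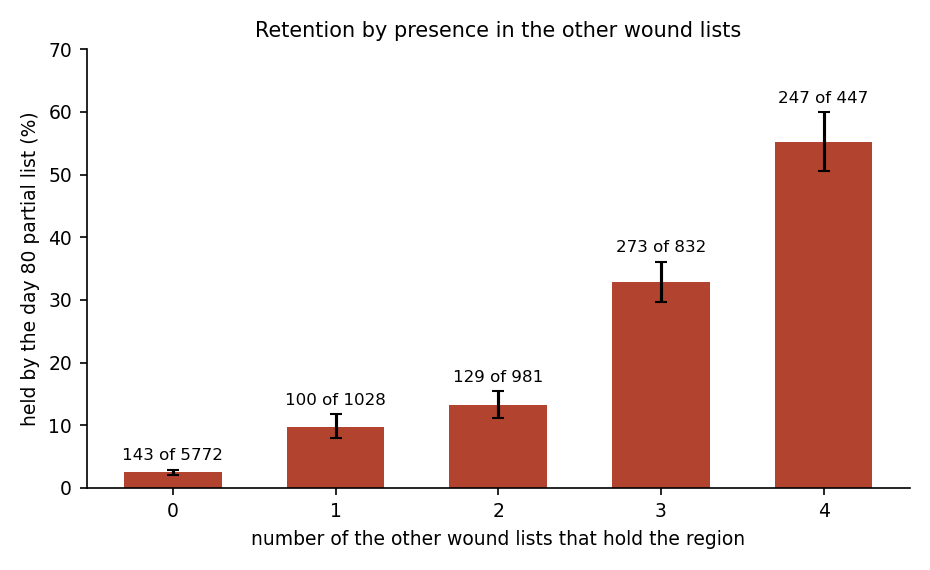
Share of follicle-type regions (%) held by the day 80 partial-thickness list, by how many of the other 4 wound lists held them; bars are shares, whiskers exact 95% intervals, and the counts stand above. The share is 2.48% with no other list and 55.3% with all 4. The same shares were not counted over all regions.

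A course through the partial-thickness wound alone was seen in few retained regions, at a share near that of the other follicle-type regions and above that of all regions. Open at days 3, 7 and 80 of that wound and in no full-thickness list were 62 retained regions (7.0%), while 669 of the regions not retained (8.19%) and 3.57% of all regions were open at days 3 and 7 and in no full-thickness list. Of the 731 regions with that early pattern, 8.48% (6.56 to 10.7) were retained, near the 9.85% of follicle-type regions as a whole. The strongest of the 62, chosen after their values were seen, lay 11478 bp from Ccdc83 at chr7:90276910-90278344, with a fold enrichment of 8.66 in the follicle list and 8.42, 10.8 and 9.72 at days 3, 7 and 80 of the partial-thickness wound. Fold enrichment here and below is the authors' value for a peak over the background of its own list, and is not compared between lists. A region 19995 bp from Kif2a, a microtubule-depolymerising kinesin, had 13.0 in the follicle list and 9.14, 9.98 and 10.3 at days 3, 7 and 80. Golim4, a Golgi membrane protein, was the nearest gene of 2 such regions, 28924 and 43452 bp away.

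The same rule with the day 80 full-thickness list in place of the partial-thickness list gave 790 regions (8.72% of the follicle-type regions). The 2 sets shared 365 regions, 40.9% of the retained regions and 46.2% of the full-thickness set. To set the retained regions beside what any list of the surface epidermis shares with the follicle, the hair follicle regions held by exactly 1 of 4 lists were counted. There were 527 for the day 80 partial-thickness list, 425 for the day 80 full-thickness list, 443 for day 80 unwounded epidermis and 294 for day 0 unwounded epidermis. In the same order these were 1.61%, 1.32%, 1.41% and 0.973% of the regions each list held. With absence asked of the day 0 epidermal list alone, the day 80 partial-thickness list held 2060 of 10897 follicle regions and the day 80 unwounded epidermal list 1837.

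The retained regions had weak peaks in the lists that chose them, which is a description since the rule used both. Ranked by score within its list, where 100 is the strongest, the median retained region stood at percentile 20.6 in the day 80 partial-thickness list, with a highest value of 81.3 and 0 regions above 90. In the hair follicle list their median was 27.2, against 33.3 for the regions not retained. In the lists the rule left free, the retained regions stood higher than the other follicle-type regions that those lists held. Their medians were 46.4 at day 3 and 38.1 at day 7 of the partial-thickness wound, against 33.8 and 30.5 for regions not retained. In the full-thickness lists they were 39.8 at day 7 and 24.6 at day 80, against 31.1 and 18.1. Of the 892 regions, 27 had both chosen peaks in the upper 50% of their lists.

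**Figure D3:**
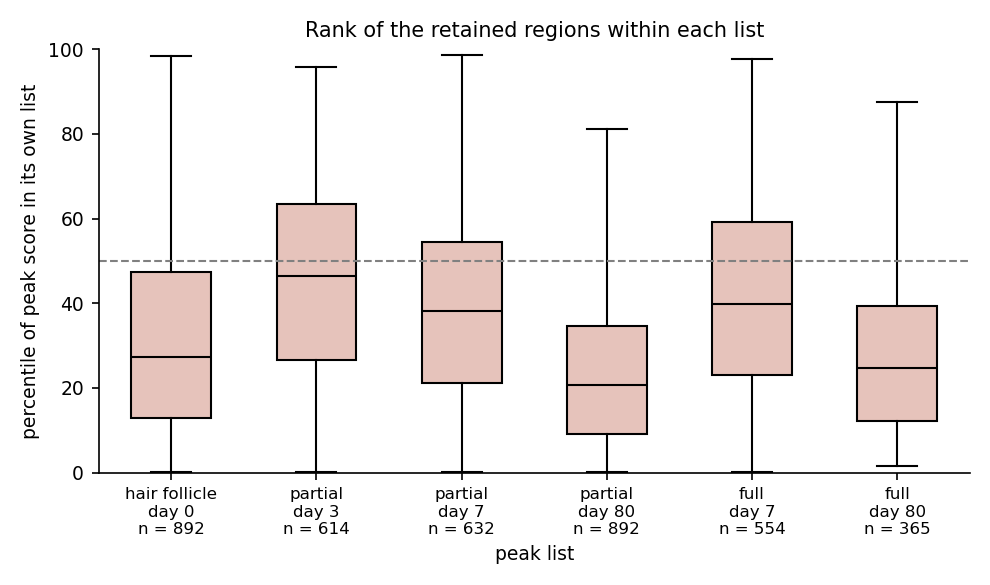
Percentile rank of peak score within each list for the retained regions that the list holds (n under each box); boxes show the median and quartiles, whiskers the lowest and highest value, and the dashed line marks 50. The medians are 27.2 in the follicle list, and 46.4, 38.1 and 20.6 at days 3, 7 and 80 of the partial-thickness wound.

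Strong follicle peaks were not the ones held most often. With the 9060 follicle-type regions cut into 10 equal bins by hair follicle score, the share retained ran between 10.6% and 12.6% in the 5 weaker bins and was 5.08% (3.74 to 6.71) in the strongest. For the day 80 full-thickness list the strongest bin gave 5.96%. In that strongest bin the day 3 partial-thickness list held 71.7% of the retained regions and 36.2% of those not retained.

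The peaks that made a region lay on top of each other in nearly all cases. In 889 of the 892 regions the hair follicle peak and the day 80 partial-thickness peak overlapped directly, by a median of 557 bp, and 689 had summits within 100 bp. The smallest direct overlaps were 86 bp in an intergenic region at chr11:63404612-63405255, 119 bp near Zfp469 and 128 bp near Ypel2. Just outside the rule, follicle regions near Cdh13, Wwox and Wnt10a lay 34, 105 and 223 bp from a day 80 partial-thickness peak. On the epidermal side the closest unwounded peak was 197 bp away, near Sparc at chr11:55377925-55378827, and 34 retained regions (3.81%) had such a peak within 1 kb, against 2.20% of those not retained. The median gap to an unwounded epidermal peak was 9356 bp for retained regions and 17321 bp for the others.

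Retained regions lay close to genes. Within 1 kb of an end of a protein-coding gene, which stands in for promoters because the gene table gives no strand, lay 203 of them (22.8%, 20.04 to 25.65), against 463 of those not retained (5.67%) and 19% of all regions. Inside genes but farther from their ends lay 43.4%, against 43.1% of those not retained. Over 50 kb from any gene lay 7.62%, against 27.8% of those not retained and 16.5% of all regions. The retained regions were also wider, with a median of 1085.5 bp against 814 bp. Counted the other way, the day 80 list held 203 of 666 follicle-type regions at gene ends (30.5%) and 689 of 8394 elsewhere (8.21%).

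**Figure D4:**
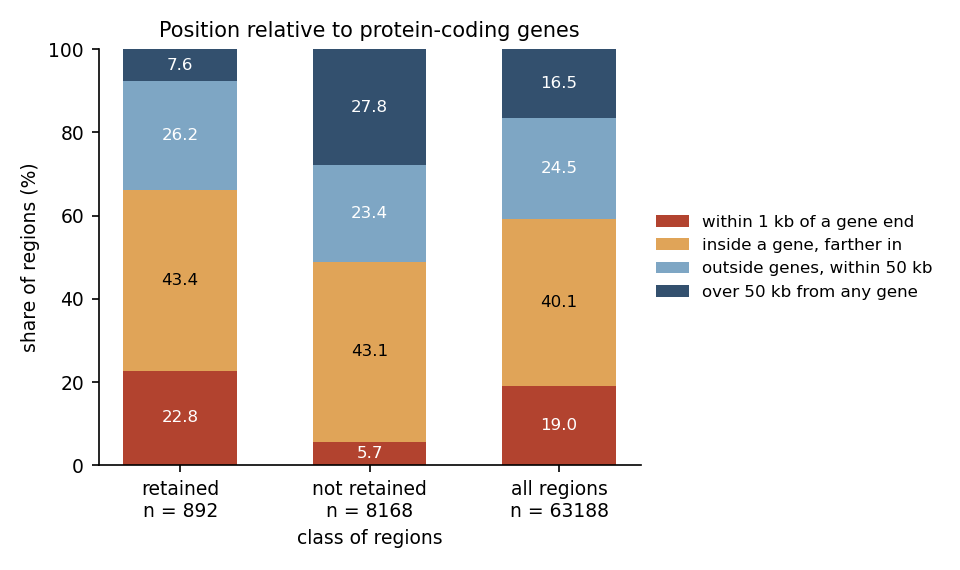
Position of regions relative to protein-coding genes, as a share (%) of the retained regions, of the follicle-type regions not retained and of all regions. Gene ends take 22.8% of the retained regions and 5.7% of those not retained, and the class over 50 kb from a gene takes 7.6% and 27.8%.

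The gap between retained and other follicle-type regions was also seen away from promoters. Away from gene ends the day 3 partial-thickness list held 64.6% of the retained regions, against 23.2% of those not retained and 49.99% of all distal regions. The day 7 full-thickness list held 56.2% of the retained distal regions, against 10.2% of those not retained and 51.8% of all. The day 80 full-thickness list held 36.1% of the retained, against 4.70% of those not retained and 44.4% of all. At gene ends the day 3 partial-thickness list held 83.3% of the retained regions, 42.8% of those not retained and 84.6% of all. Gene density followed the same split, since the median number of genes within 100 kb of a distal region was 3 for retained regions and 1 for those not retained, against 2 for all distal regions.

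The regions were spread over the genome unevenly. Chromosome 11 carried 105 of them (11.8%), against 5.74% of the regions not retained and 6.35% of all regions. Of its follicle-type regions 18.3% (15.2 to 21.7) were retained, against 9.85% over all chromosomes. The retained share was 15.4% on chromosomes 7 and 19 each and 14.6% on chromosome 17. It was 5.45% on chromosome 14, and on the X chromosome 6 of 149 regions (4.03%). Of the members, 32 (3.59%) lay in 15 clusters with gaps of up to 10 kb, and clusters of other regions were not counted for comparison. The largest clusters held 3, at Lmna and at H2-K1 and Vps52, a gene of MHC class I and a subunit of a vesicle tethering complex.

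The ETS core stood in fewer of the promoters not retained than of the retained ones, whose share was near that of open promoters in general. Of the windows of 300 bp described above, 150 windows of 131 genes overlapped 127 retained regions, and 292 windows overlapped 260 regions that were not retained. A window could reach beyond its region, as that of Kcnk10 did among those not retained, so not all its letters need lie in open sequence. TTCCGG stood in 33.3% (25.9 to 41.5) of the retained windows and in 8.56% (5.62 to 12.4) of those not retained, against 29.0% of the windows in any region and 18.7% of all promoters. ACAAAG or ACAATG, the letters SOX factors prefer, stood in 10.7% (6.22 to 16.7) of the retained windows and 26.4% (21.4 to 31.8) of those not retained, against 18.1% in any region and 25.7% of all promoters. The intervals of these 2 motifs did not overlap between retained windows and those not retained, and those of the other 13 of the 15 motifs searched did. Some windows overlap each other, such as those of a gene with several starts (Uck1) or of neighbours on opposite strands (Spata33 and Chmp1a). The same letters are then counted more than once, so windows are not independent and the intervals can be too narrow. In windows of 150 bp the SOX intervals did overlap, at 6.0% (2.78 to 11.1) of retained windows and 12.7% (9.08 to 17.0) of those not retained, while ETS kept apart at 27.3% (20.4 to 35.2) and 4.45% (2.39 to 7.49). CACGTG, the E-box, stood in 14.7% of retained windows, 7.88% of those not retained and 7.84% of all promoters. For the AP-1 site TGANTCA the shares were 6.67%, 7.53% and 6.99%. For the GC box they were 72.7%, 64.4% and 46.2%, and for the CCAAT box 30.0%, 31.8% and 38.2%. The TCF/LEF letters CTTTGA gave 13.3%, 10.96% and 14.4%. The TEAD letters GGAATG gave 12.7%, 16.1% and 13.6%. The RUNX letters TGTGGT gave 13.3%, 13.0% and 15.0%. Homeobox letters, which read TAATTA, stood in 4.67%, 3.08% and 4.53%. Forkhead letters, which read TGTTTAC, stood in 2.00%, 1.37% and 3.01%. GATA letters, which read AGATAA, stood in 5.33%, 5.82% and 9.65%. A TATA box, read as TATAAA, stood in 5.33%, 5.14% and 12.6%. The heat shock element core stood in 4.0%, 5.14% and 7.21%, and the NFI motif in 0 of the 150 retained windows, 0 of the 292 others and 0.0329% of all promoters. All were searched on both strands, and the SOX and TCF/LEF letters can overlap. The median G and C content was 62.7% in retained windows and 62.3% in those not retained. The ratio of observed to expected CpG had a median of 0.802 and 0.627, and 0.782 for windows in any region.

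Among the 15 strongest retained regions were 5 at promoters, and 1 lay at Hspa1a. The Hspa1a promoter region (chr17:34971920-34972885) had a fold enrichment of 11.8 in the follicle list, 7.46, 5.20 and 14.7 at days 3, 7 and 80 of the partial-thickness wound, and 10.3 at day 7 of the full-thickness wound. The day 80 full-thickness list did not hold it. A second retained region lay 3268 bp from the gene, and reads at either may be shared with the near-identical Hspa1b. The Spag5 promoter (chr11:78301103-78302379) had 13.0 in the follicle list, 13.3, 16.5 and 16.6 at days 3, 7 and 80 of the partial-thickness wound and 14.6 at day 7 of the full-thickness wound. It too was absent from the day 80 full-thickness list.

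Other promoters were open in every wound list. Anp32a (chr9:62340868-62341824) had 9.42 in the follicle list, 9.25, 12.1 and 9.66 in the partial-thickness lists and 8.45 and 11.6 in the full-thickness lists. Cdc6 (chr11:98907368-98908390) had 12.0 in the follicle list, 11.5, 13.1 and 10.97 in the partial-thickness lists and 10.8 and 11.6 in the full-thickness lists. Eif3l (chr15:79074651-79075869) had 11.5 in the follicle list, 11.2, 11.5 and 12.1 in the partial-thickness lists and 8.66 and 11.3 in the full-thickness lists. Nupr1, a stress-induced chromatin protein, was in every wound list as well, with a rank of 50.5 at day 80 of the partial-thickness wound and 64.6 in the follicle list. The remaining regions among the 10 strongest within 1 kb of a gene end had Fbxo27, BC024139, Gpaa1 and Smarcd1 as nearest genes. Either end counted, so these need not lie at the start of the gene. The Smarcd1 region lay 949 bp outside the gene.

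Away from promoters, a region inside Slc10a6, a transporter of steroid sulfates, stood at percentile 62.1 at day 80 of the partial-thickness wound and 94.4 in the follicle list, and all wound lists held it. A region inside Lrp6, a Wnt co-receptor, stood at 55.3 at day 80 of the partial-thickness wound and 78.7 in the follicle list, and was also in all wound lists. So were regions in Ubr4 (a ubiquitin ligase), Trpv4 (a calcium-permeable channel), Slc44a2 (a choline transporter-like protein) and Egflam (a matrix protein), and a region 4669 bp from Usp40, a deubiquitinase. Regions near Klk4, a secreted protease, and inside Setd1b, a histone H3 methyltransferase, were in every wound list but that of the full-thickness wound at day 80. A region at chr19:5846654-5847727, with Frmd8 as its nearest protein-coding gene, lay 1174 bp from the long noncoding RNA gene Neat1, and a weaker retained region overlapped Neat1.

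The genes nearest to the retained regions numbered 776, for 824 regions within 50 kb of a gene. Only part of a gene's follicle regions was held in 297 of these genes, and all in 479, of which 16 had 2 or more such regions and the rest a single one. At 6 genes 3 or more regions were retained. Exoc4, of the exocyst that tethers secretory vesicles, had 4 of its 6 follicle-type regions retained, and Lmna, which encodes the nuclear lamins A and C, 4 of 5. Septin9, a cytoskeletal GTPase, Tnrc6b, a partner of Argonaute in microRNA silencing, and Itga6 each had 3 of 3, and Ctif, a cap-binding translation factor, 3 of 6. The 4 Exoc4 regions were in no full-thickness list, and 1 of them was in the day 3 partial-thickness list. The 4 Lmna regions were all in the day 7 full-thickness list.

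Of the follicle-type regions at 10 genes of hair follicle identity, picked by name from the list of 20 described next, 1 was retained. Of 39 follicle-type regions at Sox9, Lhx2, Nfatc1, Cd34, Krt15, Lgr5, Tcf7l1, Foxc1, Tbx1 and Runx1, the day 80 partial-thickness list held 1, while 20 were in an early partial-thickness list. Over all follicle-type regions these shares were 9.85% and 33.8%, and of those within 50 kb of a gene 12.3% were retained. Of the 6 regions at Lgr5, a receptor of follicle stem cells, 4 were in both early partial-thickness lists and 0 were retained. The region near Sox9, a factor that specifies follicle stem cells, ranked at 69.6 in the follicle list, was in both early partial-thickness lists, and was not in the day 80 list. The 4 regions at Lhx2 and the 5 at Nfatc1 were likewise not retained. The single one retained lay inside Runx1, a factor of the hair cycle, at chr16:92614867-92615949, and was 1 of 8 there. It stood at 15.9 at day 80 of the partial-thickness wound and 78.3 in the follicle list, and all wound lists held it. The day 7 and day 80 full-thickness lists held 1 and 3 of the 39, against 16.2% and 8.72% of all follicle-type regions. The other retained regions of the list of 20 lay at Foxp1 and Vdr, which the pick of 10 left out. Over the whole list 3 of 62 were retained (4.84%, 1.01 to 13.5), an interval that includes 9.85% and 12.3%, so the pick shows a lower share than its list.

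By lists of genes, 3 of 62 follicle-type regions near hair follicle stem cell genes were retained (4.84%, 1.01 to 13.5), an interval that includes the 12.3% over all genes. The list has 20 genes. These were at Runx1, at Foxp1, a forkhead factor of stem cell quiescence, and at Vdr, the vitamin D receptor needed for hair cycling. The Vdr region was in no other wound list. Near genes of Wnt and hedgehog signalling 2 of 52 were retained (3.85%, 0.469 to 13.2), at Fzd2, a Wnt receptor, and at Tcf7l2, a Wnt effector, both in no other wound list. Near genes of cell adhesion and axon guidance 2 of 100 were retained (2.0%, 0.243 to 7.04), an interval that lies below the 12.3% over all genes. They were in Gpc6, a glypican that was in both early partial-thickness lists and no full-thickness list, and in Tenm4, a teneurin that was in all wound lists. Gpc6 had 13 and Tenm4 12 of the 100 regions, so these are not independent and the interval can be too narrow. Over all follicle-type regions the share was 30.5% at gene ends and 8.21% elsewhere, and the part of position in this list was not tested. BMP and TGF-beta signalling had 3 of 40 (7.5%), at Bmp7, Bmpr1b and Ltbp1, a ligand, a receptor and a protein that stores latent TGF-beta.

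Basal keratinocyte genes had 7 of 26 retained (26.9%, 11.6 to 47.8), an interval that includes the share over all genes. They were 3 regions at Itga6 and 1 each at Itgb4, Itga3, Lama3 and Dst. Itga6 and Itgb4 form the integrin of the hemidesmosome, Itga3 is a chain of a further laminin receptor, Lama3 is a chain of laminin-332 and Dst links hemidesmosomes to keratin. A region 46745 bp from Itga6 at chr2:71738295-71740141 and the region 3448 bp from Itgb4 (chr11:115969873-115971277) were in all wound lists. The Itgb4 region had a fold enrichment of 5.05 in the follicle list, 5.48, 6.75 and 5.92 in the partial-thickness lists and 5.96 and 6.27 in the full-thickness lists. Unwounded basal epidermal cells also make these proteins, and the unwounded lists held other regions at Itga6.

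Epidermal fate genes had 3 of 18 retained (16.7%, 3.58 to 41.4), at Trp63, Klf4 and Tfap2a. The region 6754 bp from Trp63, the gene for p63, ranked at 15.2 at day 80 of the partial-thickness wound and 96.7 in the follicle list, and it was in every wound list but that of the full-thickness wound at day 80. AP-1 and stress genes had 4 of 12 (33.3%, 9.92 to 65.1), at Jun and Fosb, which are AP-1 subunits, at Stat3, which carries cytokine signals, and at Bach2, a repressor. The regions at Jun, Fosb and Stat3 were in both early partial-thickness lists and the day 7 full-thickness list. That at Bach2 was in no other wound list. Wound epithelium genes had 2 of 15 (13.3%), at Hbegf, an EGF receptor ligand, and Plaur, the urokinase receptor. Genes of inflammation had 0 of 9, terminal differentiation 0 of 4 and the isthmus and sebaceous gland 0 of 5.

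**Figure D5:**
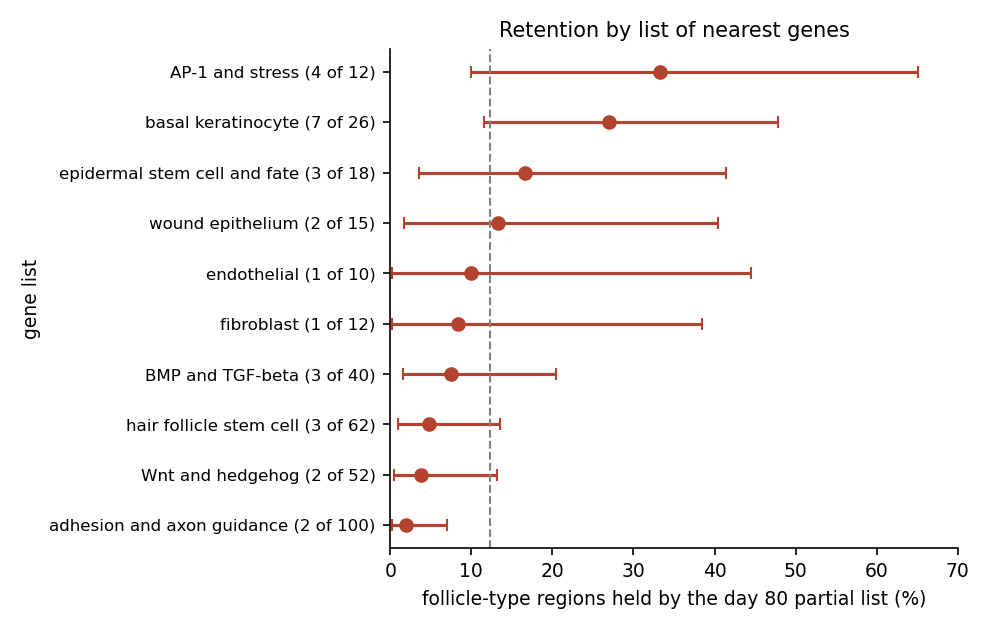
Share of the follicle-type regions nearest to the genes of each list (%) that the day 80 partial-thickness list held, with exact 95% intervals, for lists with at least 10 such regions; the dashed line marks the 12.3% over all genes. Adhesion and axon guidance (2 of 100) lies below the line, and the other intervals reach it. The intervals treat regions of the same gene as independent.

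Genes that mark other cells of the skin had few follicle-type regions, too few to set their retained shares apart from the 12.3% over all genes. Markers of fibroblasts had 1 of 12 retained (Fbn1, 8.33%, 0.211 to 38.5), and of endothelium 1 of 10 (Tek, 10%, 0.253 to 44.5). Markers of immune cells had 1 of 2 (Spi1, 50%, 1.26 to 98.7). Those of melanocytes and Merkel cells had 0 of 8 and 0 of 3, with intervals up to 36.9% and 70.8%. Muscle markers had no follicle-type region. The part of other cell types in the retained regions was not tested.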

How the data were processed

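Per the labels' protocols, sorted basal skin cells were lysed, exposed to transposase and amplified by PCR. Bowtie, Picard, MACS2 2.1.1.20160309, bedtools 2.29.2 and the mm10 build are named, with no role or order, per the submitters' processing notes. The deposited data are 8 narrowPeak lists of 29365 to 37214 peaks, 1 per group, and the sources used here do not say whether reads or calls were pooled. The authors' score of a peak was 10 times its deposited −log10 q in 100% of peaks. The deposited −log10 p and the deposited fold enrichment, a ratio over background, were used only within a list. The lowest −log10 p kept by the authors ran between 7.86 and 40.2, so a weak region can enter one list and miss another. Read depth is unknown.

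Peaks were merged with pandas 2.3.3 in Python 3.11.15, shared when they overlapped by 1 bp. Merging was checked on simulated peaks. Shares have exact Clopper-Pearson 95% intervals (scipy 1.17.1). The nearest protein-coding gene of GRCm38.p6 within 50 kb was assigned. Exons and UTRs were not used here. A planned motif search at peak summits was left out for want of genome sequence, and RefSeq promoter windows replaced it.

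The members and the 18 gene lists were chosen with earlier results of these data known. Genes were named by rule: the 15 with most retained regions, up to 4 per list, 13 genes given by name, and those of the 15 strongest regions and the 10 strongest at gene ends. The promoter windows, the CCAAT, GC box, TATA and heat shock motifs, the regions of the partial-thickness course and the hair follicle bins were chosen after values were seen.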

Additional observations from a re-analysis of the deposited data

How the results depend on the processing

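With 1 list per group, no replicate could be left out. No paired analysis was possible because the groups have 1 list each and no result comes from a test. The order of some counts and shares changed with the setting, as the values below show, and the autosomes alone and direct peak overlap changed none of 13 results. Values follow in the order of retained count, share of follicle-type regions, full-thickness counterpart, and the retained shares at day 3, day 7, full-thickness day 7, full-thickness day 80 and all wound lists. Where peaks had to cover 50% of a region, they were 2536, 22.0%, 288, 79.8%, 76.1%, 72.5%, 6.35% and 5.13%, with 38.4% at gene ends and 2375, 127 and 591 regions held by the day 80 partial-thickness, day 80 full-thickness or day 0 epidermal list alone, the last now above the 394 of the day 80 epidermal list, and the day 3 share now above that of day 7. Median peak width was 961 bp in the day 80 partial-thickness list and 460 bp in the full-thickness list. In the upper 50% of each list they were 27, 0.976%, 27, 92.6%, 88.9%, 85.2%, 70.4% and 55.6%, with 8, 10, 3 and 4 regions in the day 80 partial-thickness, day 80 full-thickness, day 0 epidermal or day 80 epidermal list alone, so that the day 80 full-thickness count passed the partial-thickness one. With absence from the day 80 epidermal list alone they were 1521, 14.9%, 1493, 74.8%, 76.9%, 68.4%, 54.8% and 40.1%. With absence from the day 0 epidermal list alone they were 2060, 18.9%, 1816, 74.2%, 76.4%, 69.0%, 56.6% and 40.8%, with 30.2% at gene ends. With lists of equal length the count stayed within 1.5 times, and 8.77% of follicle-type regions, 62.7%, 62.2%, 56.7% and 23.4% (day 3, day 7, full-thickness day 7, all wound lists), 28.4% at gene ends and 456 regions in the day 0 epidermal list alone (above the 415 of the day 80 full-thickness list) moved. Reduced to 200 bp at the summit, the full-thickness day 7 share was 58.5%. In distal regions, a setting added after seeing the data, retention was 8.21% and the shares 64.6%, 67.3%, 56.2%, 36.1% and 22.4%. Within 2 kb of a gene end lay 28.1%. With the nearest gene within 10 kb or 100 kb, 13.2% or 11.4% of follicle-type regions of all genes were retained. In windows of 150 bp, also added, 9 of 15 motif shares moved, and the SOX intervals of retained and other windows overlapped. The cause of these changes was not tested. Peak lists give presence only, and a weak peak below a list's threshold counts as absent.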

Other observations

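Hairpins of microRNA genes lay inside retained regions in 2 cases, and inside follicle-type regions not retained at Gm51281 and Mir3075. The share over all regions was not counted. The retained region at chr17:34024142-34025310 held Mir219a-1 and Mir219c, which lie on opposite strands, and that at chr17:35917861-35919211 held Mir1894. A region at chr6:29023035-29024572, whose nearest protein-coding gene is Lep, lay 344 bp from Mir129-1 and was in every wound list but that of the full-thickness wound at day 80.

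Among the 143 retained regions that no other wound list held, chosen after their values were seen, the strongest lay inside Synpo2, an actin-binding protein (chr3:123127840-123129474). It stood at percentile 52.5 at day 80 of the partial-thickness wound and 66.7 in the follicle list. Regions at Ift172, a protein of ciliary transport, Ranbp9 and Fbxo16 followed it. The median rank of the 143 in the day 80 partial-thickness list was 11.7, against 31.2 for the 247 regions of all 5 wound lists, and 9.09% and 37.7% of these groups lay at gene ends.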
